A study of Mus musculus with 12 samples.

Results

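The genes described here are 43 genes of DNA replication and mitosis, chosen by symbol from the 48709 rows of a gene count table, and all 43 were found in it. They were read as 2 groups, 24 replication genes and 19 mitosis genes. The cells were thymic iNKT cells, which are T cells that carry an invariant T cell receptor recognizing lipids on CD1d and that leave the cell cycle as they mature from an NK1.1- to an NK1.1+ stage. The study asked how overexpression of miR-155 in T cells changes their development.

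RNA-seq was performed on 12 libraries, 3 in each of 4 groups. These were miR-155KI NK1.1+, WT NK1.1+, miR-155KI NK1.1- and WT NK1.1- iNKT cells from the thymus of C57BL/6J mice aged 7 weeks. The miR-155KI mice carried CD4Cre and had the miR-155 allele knocked in at Rosa26 on both chromosomes. The WT mice were littermates without CD4Cre that carried the same allele. Cre and overexpressed miR-155 therefore cannot be told apart in these groups, and the CD4 promoter drives Cre from an early stage in the whole T cell lineage, so that the thymus around the iNKT cells is changed as well. CD8+ thymocytes were depleted with beads before cells were sorted on TCR-β, the CD1d tetramer, NK1.1 and CD44.

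The study's methods speak of pooled biological replicates and the labels of 3 libraries in a group, and neither ties a library to an animal. The p-values below thus measure the spread between libraries, which may be technical. In bulk libraries, fewer cycling cells and less cell cycle RNA in each cell cannot be told apart.

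Replication begins when the loading factors Cdt1 and Cdc6 place the ring-shaped MCM helicase on DNA in G1, a step called licensing. Cdc45 and the GINS complex then switch the helicase on in S phase, while Pcna holds the polymerases at the fork and ribonucleotide reductase and Tyms supply nucleotides. In G2 and mitosis, Cdk1 acts with cyclins A and B, the Aurora and Polo kinases build the spindle, and Cdc20 and Ube2c mark cyclins for destruction at anaphase. Many genes of the first phase are controlled through E2F sites in their promoters, and many of the second through the cell cycle genes homology region (CHR) and CCAAT boxes.

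That division could be read in the promoter letters. RefSeq promoter windows on GRCm38.p6, which span 250 bases before the gene start and 50 bases from it, were matched for 20 of the 24 replication genes and 15 of the 19 mitosis genes. Those of Mcm4, Gins1, Gins2, Ccne2, Ccna2, Aurkb, Kif20a and Tpx2 were not used here. Both strands were searched for an E2F motif (TTTCGCGC, TTTGGCGC, TTTCCCGC or TTTGCCGC), a CHR motif (TTTGAA or TTCGAA) and a CCAAT box (CCAAT), and a gene counted once per motif. A match on the other strand is printed as its reverse complement, TTCAAA for TTTGAA and GCGGGAAA for TTTCCCGC. The following windows of 60 bases are shown as examples of 3 replication genes with an E2F match and 3 mitosis genes with a CHR match. Capitals mark the E2F or CHR motif named on each line, and CCAAT boxes are left in lower case.
Mcm6, E2F, chr1:128359719-128359778, minus strand: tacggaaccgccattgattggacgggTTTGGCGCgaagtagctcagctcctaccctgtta
Mcm3, E2F, chr1:20820263-20820322, minus strand: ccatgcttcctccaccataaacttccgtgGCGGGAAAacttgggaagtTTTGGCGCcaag
Cdt1, E2F, chr8:122568005-122568064, plus strand: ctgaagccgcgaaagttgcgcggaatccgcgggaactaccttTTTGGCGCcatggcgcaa
Ccnb2, CHR, chr9:70421518-70421577, minus strand: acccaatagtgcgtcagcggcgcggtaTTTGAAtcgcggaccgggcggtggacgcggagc
Cdc20, CHR, chr4:118437329-118437388, minus strand: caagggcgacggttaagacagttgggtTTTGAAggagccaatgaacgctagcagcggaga
Kif11, CHR, chr19:37376336-37376395, plus strand: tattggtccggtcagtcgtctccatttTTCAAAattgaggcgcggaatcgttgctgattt

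An E2F match was present in 9 of 20 replication genes (45%) and in 1 of 15 mitosis genes (6.67%), beside 2.6% of the 27025 genes with a window. A CHR match was present in 12 of 15 mitosis genes (80%) and in 3 of 20 replication genes (15%), beside 21.7% of all genes. A CCAAT box was found in 14 of 15 mitosis genes (93.3%), 12 of 20 replication genes (60%) and 41.1% of all genes. All 12 mitosis genes (80%) and all 3 replication genes (15%) with a CHR match also held a CCAAT box, and both together were present in 8.61% of all genes. These matches describe the letters and not binding.

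**Figure D1:**
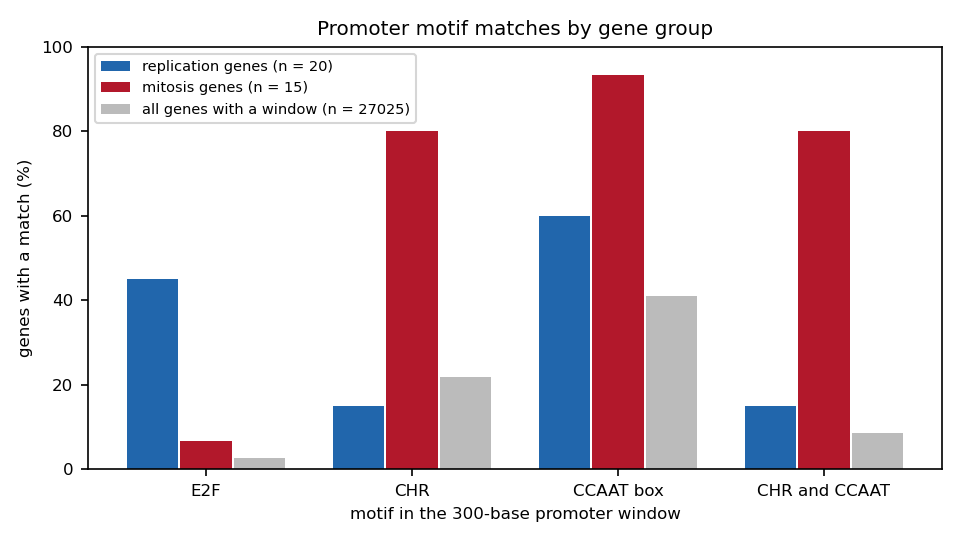
Share of genes (y axis, percent) whose 300-base promoter window holds each motif (x axis), for replication genes, mitosis genes and all genes with a window. The E2F bar is highest for replication genes (45%) and the CHR bar for mitosis genes (80%).

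The mature miRNA that the knock-in allele encodes is given with its seed, bases 2 to 8, in capitals (RefSeq, GRCm38.p6, chr16:84714143-84714165, plus strand).
miR-155-5p: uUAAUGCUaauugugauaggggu

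Matches to this seed were searched in the annotated 3′ UTRs (GENCODE M21) as the 8 bases AGCATTAA or as 7 bases, AGCATTA or GCATTAA. Among replication genes, 4 of 24 held a match (16.7%), beside 13.4% of all 21020 genes with a 3′ UTR. The 8-base match was present in 2 of 24 replication genes, Mcm2 and, in 1 of its 2 annotated transcripts, Mcm4 (8.33%), in 0 of 19 mitosis genes and in 3.2% of all genes. Among mitosis genes, Cdk1 alone held a 7-base match (1 of 19, 5.26%). The 4 replication sites are shown because their genes include both members called in the genotype comparisons below, with the matched bases in capitals.
Mcm2 3′ UTR, chromosome 6: gccaaggctgtAGCATTAAatgactattta
Mcm4 3′ UTR, chromosome 16: aaagccattgtAGCATTAAatcttgtgtaa
Cdt1 3′ UTR, chromosome 8: ataaagtgctgGCATTAAgttgcttcctg
Gins1 3′ UTR, chromosome 2: ttgacagacatGCATTAAcataaccaaga

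Library depth was 12819476 to 20518257 counts, and levels are given as CPM, that is counts relative to library size after TMM scaling over all 12 libraries. The row of Mir155 held 0 counts in every library, so the genotype labels could not be checked by the targeted gene. Klrb1c, which encodes NK1.1, had 358 to 774 CPM in the 6 NK1.1+ libraries and 36.7 to 79.9 CPM in the 6 NK1.1- libraries, and Zbtb16, which encodes the iNKT factor PLZF, was at 216 CPM or more in all 12. Libraries stood apart in 3 ways. Replicates 2 and 3 of WT in both pools had 135 to 237 CPM of Xist and 3.29 to 6.92 CPM of the Y-linked gene Ddx3y, whereas the other 8 libraries had 8.19 to 35.0 CPM of Xist and 52.5 to 76.7 CPM of Ddx3y. The summed level of 13 myeloid markers was 226 to 867 CPM in miR-155KI NK1.1+ libraries, 46.3 to 55.1 CPM in WT NK1.1+ libraries, 41.4 to 112 CPM in miR-155KI NK1.1- libraries and 42.6 to 167 CPM in WT NK1.1- libraries. Replicate 1 of miR-155KI NK1.1+ also held 211 CPM over 7 markers of double-positive (DP) thymocytes, of which 107 CPM were Dntt, while the other 11 libraries held 6.53 to 45.2 CPM.

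The pools differed most. Over the 24 replication genes, the summed level was 2002, 1504 and 1553 CPM in miR-155KI NK1.1+ libraries, 1580, 1817 and 1490 CPM in WT NK1.1+ libraries, 2647, 2481 and 2950 CPM in miR-155KI NK1.1- libraries and 3400, 3056 and 3693 CPM in WT NK1.1- libraries. Over the 19 mitosis genes, it was 930, 372 and 387 CPM in miR-155KI NK1.1+ libraries, 333, 388 and 263 CPM in WT NK1.1+ libraries, 1383, 1104 and 1763 CPM in miR-155KI NK1.1- libraries and 2071, 1164 and 2012 CPM in WT NK1.1- libraries. For both sums, no NK1.1+ library reached the lowest NK1.1- library. The replication sums of miR-155KI NK1.1- cells all lay under those of WT NK1.1- cells, whereas the mitosis sums of these genotypes overlapped.

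**Figure D2:**
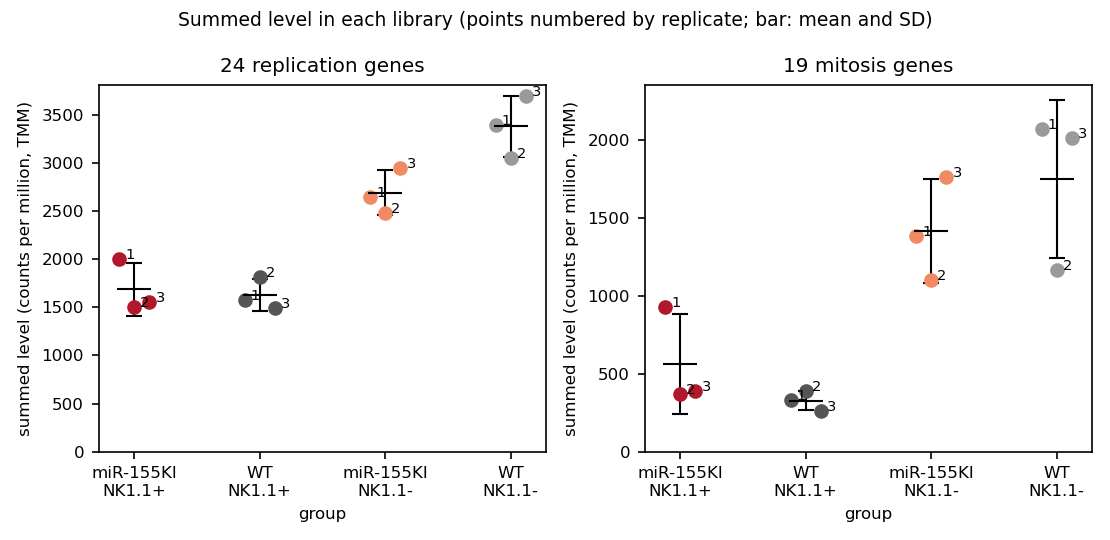
Summed level (y axis, CPM after TMM scaling) of the 24 replication genes (left) and the 19 mitosis genes (right) in each library, by group (x axis), with points numbered by replicate and bars for the mean and SD of 3 libraries. All NK1.1+ libraries sit under all NK1.1- libraries, and replicate 1 of miR-155KI NK1.1+ stands at 930 CPM for mitosis genes, above the other NK1.1+ libraries.

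Mitosis genes varied more between libraries of a group than replication genes, though barely so in WT NK1.1+ cells. The median coefficient of variation of mitosis genes was 63.5% in miR-155KI NK1.1+, 21.4% in WT NK1.1+, 22.9% in miR-155KI NK1.1- and 32% in WT NK1.1- cells. That of replication genes was 38.1% in miR-155KI NK1.1+, 20.2% in WT NK1.1+, 9.66% in miR-155KI NK1.1- and 13.7% in WT NK1.1- cells. Over the 14401 genes that passed the filter on low counts in all groups together, it was 28.5% in miR-155KI NK1.1+, 18.1% in WT NK1.1+, 14.5% in miR-155KI NK1.1- and 17.3% in WT NK1.1- cells. The genes moved together from library to library. Replicate 1 of miR-155KI NK1.1+ had the highest level of its group for 19 of 19 mitosis and 20 of 24 replication genes. Replicate 3 of miR-155KI NK1.1- was highest for 19 of 19 mitosis and 17 of 24 replication genes, and replicate 2 of WT NK1.1- was lowest for 19 of 19 and 19 of 24.

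**Figure D3:**
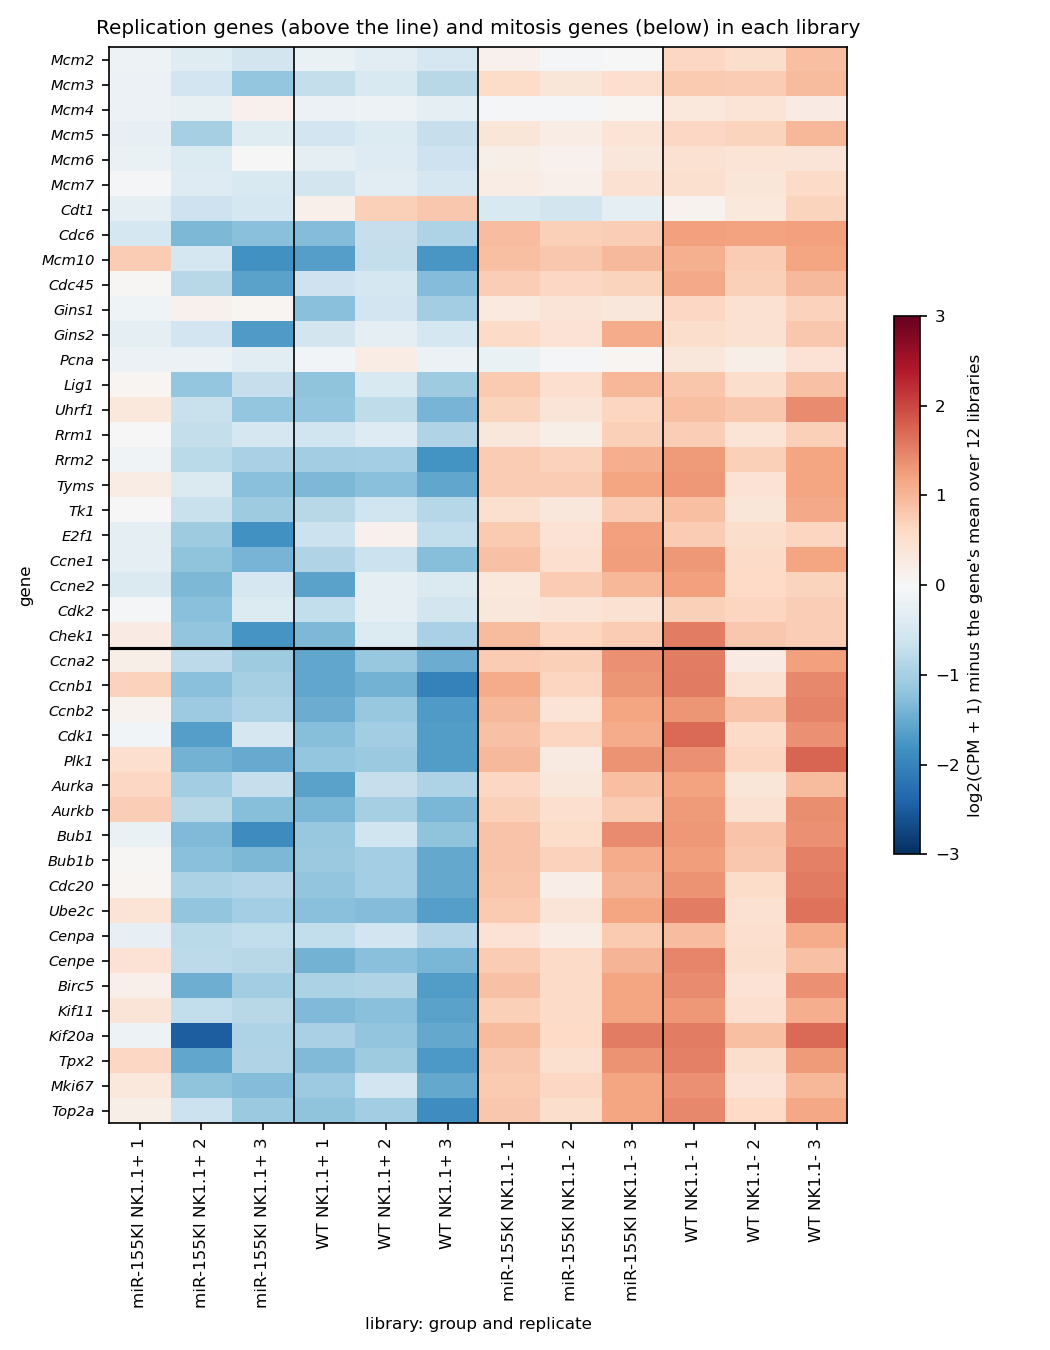
Level of each gene in each library as log2(CPM + 1) minus the gene's mean over the 12 libraries (color), with 24 replication genes above the line and 19 mitosis genes below it (y axis) and libraries by group and replicate (x axis). The NK1.1+ libraries are mostly blue and the NK1.1- libraries mostly red, Cdt1 departs from this pattern, and the first miR-155KI NK1.1+ column is the palest of its group over the mitosis genes.

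In WT cells, NK1.1+ libraries were compared with NK1.1- libraries to read the pools without overexpressed miR-155. All 19 mitosis genes and 22 of 24 replication genes were lower in NK1.1+ cells by edgeR's quasi-likelihood test at a Benjamini-Hochberg adjusted p under 0.05, called lower below, and 0 members were called higher. Over all 13555 genes tested, 10.9% were called lower and 9.89% higher. The median log2 fold change was -2.54 for mitosis genes and -1.59 for replication genes, beside 0.01 for all genes tested. The same 19 and 22 genes had all NK1.1+ libraries under all NK1.1- libraries, as had 18.6% of all genes tested.

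Ccnb2, a mitotic cyclin, had 16.7, 21.4 and 14.1 CPM in WT NK1.1+ libraries, against 123, 87.9 and 136 CPM in WT NK1.1- libraries. The groups lay far apart, and the log2 fold change was -2.76 ± 0.20 (SE, n = 3 libraries each, edgeR adjusted p = 9.29e-06). Bub1b, a spindle checkpoint kinase, had 14.3, 15.2 and 10.5 CPM in WT NK1.1+ libraries, against 77.6, 57.3 and 93.5 CPM in WT NK1.1- libraries. No libraries overlapped, and it fell with a log2 fold change of -2.54 ± 0.21 (edgeR adjusted p = 1.78e-05). Kif11, a motor that pushes the spindle poles apart, had 14.3, 15.2 and 11.7 CPM in WT NK1.1+ libraries, against 94.0, 53.8 and 81.8 CPM in WT NK1.1- libraries. Its log2 fold change was -2.51 ± 0.21 (edgeR adjusted p = 1.98e-05), and again no libraries overlapped.

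Mki67, the gene of the proliferation antigen Ki-67, had 20.4, 29.9 and 14.7 CPM in WT NK1.1+ libraries, against 117, 60.9 and 90.4 CPM in WT NK1.1- libraries. Top2a, the topoisomerase that untangles sister chromosomes, had 46.0, 52.2 and 29.2 CPM in WT NK1.1+ libraries, against 298, 163 and 242 CPM in WT NK1.1- libraries. Both fell without overlap, Mki67 with a log2 fold change of -2.08 ± 0.32 (edgeR adjusted p = 0.00271) and Top2a with one of -2.49 ± 0.28 (edgeR adjusted p = 4.69e-04). Over the 19 mitosis genes, the log2 fold change ran between -3.03 for Ccnb1, the cyclin of mitotic entry, and -1.64 for Cenpa, the histone of the centromere.

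Among replication genes, the loading factor Cdc6 had 6.56, 10.5 and 8.76 CPM in WT NK1.1+ libraries, against 42.2, 42.0 and 42.3 CPM in WT NK1.1- libraries. It was nearly constant among WT NK1.1- libraries, and its log2 fold change was -2.32 ± 0.19 (edgeR adjusted p = 1.78e-05). Tyms, the thymidylate synthase, had 18.9, 20.3 and 16.3 CPM in WT NK1.1+ libraries, against 124, 68.1 and 114 CPM in WT NK1.1- libraries, a log2 fold change of -2.49 ± 0.22 (edgeR adjusted p = 2.60e-05). Mcm3, a helicase subunit, had 93.0, 112 and 85.8 CPM in WT NK1.1+ libraries, against 267, 259 and 296 CPM in WT NK1.1- libraries, a log2 fold change of -1.53 ± 0.14 (edgeR adjusted p = 2.64e-05). Mcm2 had 168, 154 and 136 CPM in WT NK1.1+ libraries, against 299, 283 and 365 CPM in WT NK1.1- libraries, a log2 fold change of -1.07 ± 0.14 (edgeR adjusted p = 2.85e-04). All 6 MCM subunits fell, with log2 fold changes between -1.53 (Mcm3) and -0.57 (Mcm4), smaller in size than those of Cdc6 and Tyms.

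The 2 replication genes not called lower in WT cells were Pcna and Cdt1. Pcna had 279, 345 and 262 CPM in WT NK1.1+ libraries, against 376, 336 and 400 CPM in WT NK1.1- libraries, and 1 NK1.1+ library reached into the NK1.1- range. Its log2 fold change was -0.36 ± 0.14 (edgeR adjusted p = 0.0877), and with the replicate number as a block, which pairs the WT pools, the adjusted p was 0.0443. Cdt1 had 114, 168 and 180 CPM in WT NK1.1+ libraries, against 110, 128 and 163 CPM in WT NK1.1- libraries. These ranges overlapped and the log2 fold change was 0.17 ± 0.19 (edgeR adjusted p = 0.58), so Cdt1 was not called with the helicase genes whose products it loads.

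By role, 7 of 7 mitotic cyclins and kinases, 4 of 4 genes of the spindle checkpoint and anaphase, 6 of 6 of centromere, spindle and motors and both of chromosome structure were called lower in WT NK1.1+ cells. In replication, 7 of 8 genes of licensing and the helicase, 4 of 4 of helicase activation, 2 of 3 of fork and ligation, 4 of 4 of nucleotide supply and 5 of 5 of S phase entry and checkpoint were called lower. In the wider pathway, 64 of 65 other mitosis genes and 40 of 54 other replication genes were called lower, led by Cks1b, a subunit bound to Cdk1, Cenpf, Ncapg, E2f2, Asf1b and Timeless. Of 23 genes of G1 and quiescence, 3 were called higher and 5 lower. Btg2, an antiproliferative factor, averaged 735 CPM in WT NK1.1+ and 320 CPM in WT NK1.1- cells (log2 fold change 1.17 ± 0.12, edgeR adjusted p = 6.63e-05), and Btg1 averaged 1008 CPM in WT NK1.1+ and 506 CPM in WT NK1.1- cells (log2 fold change 0.96 ± 0.14, edgeR adjusted p = 5.07e-04). Cdk6, a G1 kinase, averaged 19.5 CPM in WT NK1.1+ and 45.8 CPM in WT NK1.1- cells (log2 fold change -1.26 ± 0.17, edgeR adjusted p = 4.00e-04).

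In miR-155KI cells, the same comparison of pools gave smaller median folds and fewer calls. The test of that difference is the interaction given last, in which no member was called. In NK1.1+ cells, 12 of 19 mitosis and 15 of 24 replication genes were called lower and 0 higher, beside 6.15% lower and 7.92% higher among 12942 genes tested. The median log2 fold change was -1.33 for mitosis genes and -1.06 for replication genes (0.03 for all genes tested), and all 43 levels were lower in NK1.1+ cells. The libraries did not overlap for 13 mitosis and 21 replication genes, as for 17.1% of all genes tested.

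Myeloid markers moved with the pools here. Their summed level was 395, 867 and 226 CPM in miR-155KI NK1.1+ libraries, against 78.1, 41.4 and 112 CPM in miR-155KI NK1.1- libraries, and 6 of 11 tested were called higher. None of 5 tested DP thymocyte markers was called by edgeR, where 1 had an unadjusted p under 0.05. Their summed level was 211, 8.48 and 21.6 CPM in miR-155KI NK1.1+ libraries, against 31.9, 6.54 and 14.5 CPM in miR-155KI NK1.1- libraries, and without NK1.1+ replicate 1 these ranges overlapped. The part of either in the levels of the cell cycle genes was not tested.

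The counts depended on single libraries, and so did calls over all genes. These were 1821 in the main fit and 2542 without replicate 1 of miR-155KI NK1.1+. They were 1800 and 1487 without miR-155KI NK1.1+ replicates 2 and 3, and 791, 923 and 788 without miR-155KI NK1.1- replicates 1, 2 and 3. Without replicate 1 of miR-155KI NK1.1+, 19 of 19 mitosis and 19 of 24 replication genes were called lower, with medians of -1.95 and -1.46. Leaving out 1 of the other 5 libraries gave 9 mitosis genes without miR-155KI NK1.1- replicate 2, 7 and 6 without miR-155KI NK1.1+ replicates 2 and 3, and 4 and 1 without miR-155KI NK1.1- replicates 1 and 3. For replication genes, the counts were 9 without replicate 2 of either pool, 8 without NK1.1+ replicate 3, 6 without NK1.1- replicate 1 and 4 without NK1.1- replicate 3.

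Cenpa had 72.6, 48.3 and 51.2 CPM in miR-155KI NK1.1+ libraries, against 116, 99.4 and 148 CPM in miR-155KI NK1.1- libraries, a log2 fold change of -1.08 ± 0.20 (edgeR adjusted p = 0.00594). Ccna2, the cyclin of S and G2 phase, had 48.4, 24.4 and 19.9 CPM in miR-155KI NK1.1+ libraries, against 73.3, 70.8 and 112 CPM in miR-155KI NK1.1- libraries, a log2 fold change of -1.47 ± 0.32 (edgeR adjusted p = 0.0142). Both fell without overlap, but replicate 1 of NK1.1+ was the highest of its group. Bub1b had 33.0, 12.9 and 11.9 CPM in miR-155KI NK1.1+ libraries, against 59.0, 52.1 and 70.2 CPM in miR-155KI NK1.1- libraries, a log2 fold change of -1.65 ± 0.36 (edgeR adjusted p = 0.0144). Mki67 had 56.1, 18.8 and 17.6 CPM in miR-155KI NK1.1+ libraries, against 77.6, 69.6 and 103 CPM in miR-155KI NK1.1- libraries, a log2 fold change of -1.43 ± 0.40 (edgeR adjusted p = 0.0407). In these genes replicate 1 of NK1.1+ lay between its own group and the NK1.1- libraries, and the Mki67 call was lost when any 1 of the other 5 libraries was left out (edgeR adjusted p up to 0.166). Top2a had 123, 68.9 and 49.3 CPM in miR-155KI NK1.1+ libraries, against 189, 156 and 245 CPM in miR-155KI NK1.1- libraries, a log2 fold change of -1.30 ± 0.30 (edgeR adjusted p = 0.0178).

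Of the replication genes, Rrm2, the small subunit of ribonucleotide reductase, had 67.0, 41.3 and 36.7 CPM in miR-155KI NK1.1+ libraries, against 124, 119 and 156 CPM in miR-155KI NK1.1- libraries, a log2 fold change of -1.46 ± 0.22 (edgeR adjusted p = 0.00243). Cdc6 had 11.8, 6.26 and 6.75 CPM in miR-155KI NK1.1+ libraries, against 34.5, 29.6 and 29.8 CPM in miR-155KI NK1.1- libraries, a log2 fold change of -1.92 ± 0.30 (edgeR adjusted p = 0.00267). Ccne1, the cyclin E of S phase entry, had 22.4, 11.2 and 9.78 CPM in miR-155KI NK1.1+ libraries, against 50.9, 39.3 and 66.4 CPM in miR-155KI NK1.1- libraries, a log2 fold change of -1.85 ± 0.33 (edgeR adjusted p = 0.00546). None of the 3 overlapped between pools. Mcm2, by contrast, had 174, 152 and 132 CPM in miR-155KI NK1.1+ libraries, against 211, 187 and 195 CPM in miR-155KI NK1.1- libraries. Its groups did not overlap, but the log2 fold change of -0.38 ± 0.13 was not called (edgeR adjusted p = 0.0892). Pcna had 262, 264 and 237 CPM in miR-155KI NK1.1+ libraries, against 261, 284 and 310 CPM in miR-155KI NK1.1- libraries, and these overlapped (log2 fold change -0.16 ± 0.11, edgeR adjusted p = 0.389).

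In the wider pathway, 18 of 65 other mitosis genes and 12 of 54 other replication genes were called lower in NK1.1+ cells of miR-155KI mice, and 1 other replication gene, Slbp, was called higher. Cdc25b, Ncapg2 and Cks1b had the smallest p in the first list and Rpa1, Asf1b and Clspn in the second. Btg2 averaged 742 CPM in miR-155KI NK1.1+ and 281 CPM in miR-155KI NK1.1- cells (log2 fold change 1.40 ± 0.15, edgeR adjusted p = 3.23e-04), and Btg1 and Ccnd3 were called higher as well, among 4 of 22 tested genes of G1 and quiescence.

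Within the NK1.1- pool, miR-155KI cells were compared with WT cells. The paper describes stage 2 of this pool as a mix of differentiated iNKT2 and iNKT17 subsets and immature precursors of iNKT1 cells. Of 10 tested markers of iNKT cells and pools, 3 were called lower in miR-155KI cells and 0 higher. The 3 were Tbx21 (log2 fold change -1.23 ± 0.15, edgeR adjusted p = 7.76e-04), Il2rb (-0.51 ± 0.11, edgeR adjusted p = 0.0217) and Klrb1c (-0.71 ± 0.15, edgeR adjusted p = 0.0229). The part of subset shares in the levels of the cell cycle genes was not tested. Of the replication genes, 2 of 24 were called lower in miR-155KI cells, Mcm2 and Cdt1, both of licensing and the helicase, and 0 higher, beside 1.5% lower and 1.93% higher among 13304 genes tested. None of the 19 mitosis genes was called by edgeR, DESeq2 or limma. By edgeR, 1 mitosis and 10 replication genes had an unadjusted p under 0.05, as had 2457 of all 13304 genes tested. The levels were lower in miR-155KI cells for 21 of 24 replication and 19 of 19 mitosis genes, with medians of -0.30 and -0.26 (0.00 for all genes tested). Yet the libraries of the genotypes did not overlap for 11 replication genes and 0 mitosis genes, beside 9.93% of all genes tested that were lower without overlap. The number of replication calls was 7 with DESeq2, which added Mcm3, Mcm4, Mcm5, Pcna and Uhrf1, and 5 without WT NK1.1- replicate 1. Over all genes, calls rose as well, to 960 with DESeq2 and 917 without that library, against 457 in the main fit. Leaving out WT NK1.1- replicate 1 keeps only WT libraries high in Xist against miR-155KI libraries low in it. Genotype and sex-linked transcripts cannot be told apart in that fit. In the main fit they are partly confounded, since WT replicate 1 alone shares the sex-linked levels of the miR-155KI libraries.

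Mcm2 had 211, 187 and 195 CPM in miR-155KI NK1.1- libraries, against 299, 283 and 365 CPM in WT NK1.1- libraries. Every miR-155KI library was under every WT library. The log2 fold change was -0.69 ± 0.11 (SE, n = 3 libraries each, edgeR adjusted p = 0.0048), and the call held in all alternatives tried (adjusted p up to 0.0443). Mcm2 holds the 8-base match shown above, and whether miR-155 acts on any of the matches was not tested. Cdt1 had 74.2, 70.4 and 83.5 CPM in miR-155KI NK1.1- libraries, against 110, 128 and 163 CPM in WT NK1.1- libraries, again without overlap. The log2 fold change was -0.83 ± 0.14 (edgeR adjusted p = 0.00561). With WT replicate 1 as the only WT library, which leaves out both WT libraries high in Xist, it was -0.53 and not called (adjusted p = 0.124). Whether the sex-linked transcripts play a part in these values was not tested.

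Pcna had 261, 284 and 310 CPM in miR-155KI NK1.1- libraries, against 376, 336 and 400 CPM in WT NK1.1- libraries. No libraries overlapped, and the log2 fold change was -0.40 ± 0.10 (edgeR adjusted p = 0.0544). The other helicase subunits had log2 fold changes between -0.45 ± 0.12 (Mcm5) and -0.21 ± 0.11 (Mcm7), with adjusted p between 0.0587 and 0.322. Mcm4, which also holds the 8-base match, had 139, 139 and 151 CPM in miR-155KI NK1.1- libraries, against 180, 192 and 172 CPM in WT NK1.1- libraries, without overlap (log2 fold change -0.36 ± 0.10, edgeR adjusted p = 0.0796). Gins1, a subunit of the complex that activates the helicase, had 8.66, 9.40 and 8.99 CPM in miR-155KI NK1.1- libraries, against 11.2, 9.84 and 11.9 CPM in WT NK1.1- libraries (log2 fold change -0.30 ± 0.21, edgeR adjusted p = 0.497). The levels of E2f1, Gins2 and Lig1 were not lower, with log2 fold changes of 0.20, 0.11 and 0.00.

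Of the mitosis genes, Cenpa had 116, 99.4 and 148 CPM in miR-155KI NK1.1- libraries, against 164, 122 and 186 CPM in WT NK1.1- libraries, a log2 fold change of -0.39 ± 0.17 (edgeR adjusted p = 0.248). Aurkb, the kinase that corrects spindle attachments, had 45.4, 39.4 and 47.6 CPM in miR-155KI NK1.1- libraries, against 67.4, 37.9 and 73.6 CPM in WT NK1.1- libraries, a log2 fold change of -0.45 ± 0.21 (edgeR adjusted p = 0.289). Bub1b had 59.0, 52.1 and 70.2 CPM in miR-155KI NK1.1- libraries, against 77.6, 57.3 and 93.5 CPM in WT NK1.1- libraries, a log2 fold change of -0.35 ± 0.17 (edgeR adjusted p = 0.292). In each of the 3, WT replicate 2 lay within or under the miR-155KI range while WT replicates 1 and 3 lay high. Mki67 had 77.6, 69.6 and 103 CPM in miR-155KI NK1.1- libraries, against 117, 60.9 and 90.4 CPM in WT NK1.1- libraries, a log2 fold change of -0.12 ± 0.23 (edgeR adjusted p = 0.837). Top2a had 189, 156 and 245 CPM in miR-155KI NK1.1- libraries, against 298, 163 and 242 CPM in WT NK1.1- libraries, a log2 fold change of -0.26 ± 0.23 (edgeR adjusted p = 0.6). Without WT NK1.1- replicate 2, the median of the mitosis genes was -0.50 and 1 of them, Aurkb, was called lower.

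In the wider pathway, 2 of 54 other replication genes were called lower in miR-155KI NK1.1- cells. The mean level of E2f2, an activating E2F factor, was 25.9 CPM among miR-155KI and 42.4 CPM among WT libraries (log2 fold change -0.72 ± 0.15, edgeR adjusted p = 0.02), and Slbp, which binds histone mRNA, had a mean of 134 CPM among miR-155KI and 181 CPM among WT libraries (log2 fold change -0.45 ± 0.10, edgeR adjusted p = 0.0289). Of 65 other mitosis genes, 1 was called lower, Lmnb1 of the nuclear lamina (log2 fold change -0.67 ± 0.14, edgeR adjusted p = 0.0192). Of 23 genes of G1 and quiescence, 3 were called lower. Mycn had a mean of 1.25 CPM among miR-155KI and 7.35 CPM among WT libraries (log2 fold change -2.57 ± 0.43, edgeR adjusted p = 0.00514), Cdkn1a, the inhibitor p21, had means of 6.35 CPM among miR-155KI and 20.9 CPM among WT libraries (log2 fold change -1.75 ± 0.38, edgeR adjusted p = 0.0387), and Btg1 had a log2 fold change of -0.49 ± 0.12 (edgeR adjusted p = 0.0443).

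**Figure D4:**
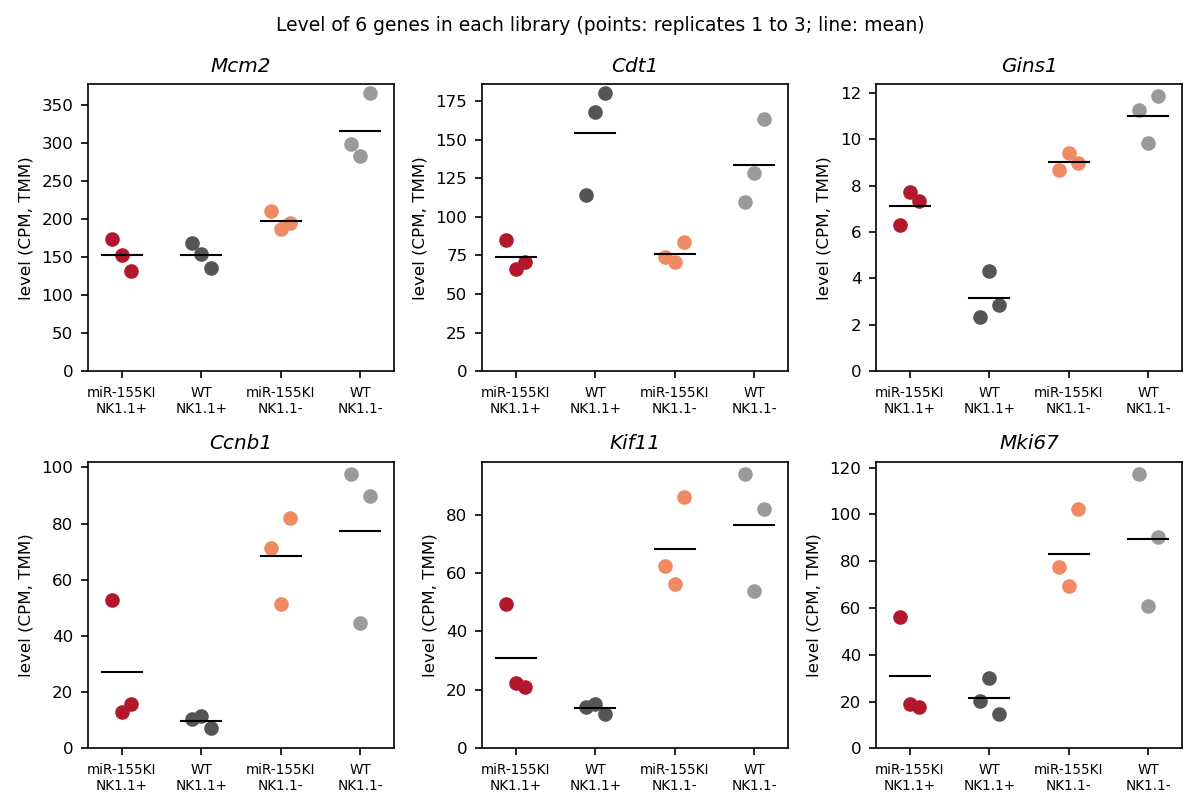
Level (y axis, CPM after TMM scaling) of Mcm2, Cdt1, Gins1, Ccnb1, Kif11 and Mki67 in each library, by group (x axis), with points for replicates 1 to 3 and a line for the mean. The Cdt1 points of miR-155KI lie under those of WT in both pools, but the difference was called by edgeR only in the NK1.1- pool. Mcm2 is lower in miR-155KI cells in the NK1.1- pool, and replicate 1 of miR-155KI NK1.1+ stands high for Ccnb1, Kif11 and Mki67.

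Within the NK1.1+ pool, miR-155KI cells were compared with WT cells at the last stage. None of the 43 genes was called by edgeR, beside 0.0231% called higher and 0% lower among 12991 genes tested. At an unadjusted p under 0.05, 9 mitosis and 3 replication genes were higher and 1 replication gene, Cdt1, lower. In either direction, 1539 of all 12991 genes tested passed this bound. DESeq2 called 3, Ccnb1 and Kif11 higher and Cdt1 lower, and limma called 0. Over all genes, DESeq2 called 316, beside 3 with edgeR and 3 with limma. The levels of 18 of 19 mitosis genes and 17 of 24 replication genes were higher in miR-155KI cells, with medians of 0.88 and 0.13 (0.02 for all genes tested). The libraries of 7 mitosis and 3 replication genes were higher without overlap, beside 8.46% of all genes tested.

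Replicate 1 carried much of this difference. Without miR-155KI NK1.1+ replicate 1, the library with 211 CPM of DP thymocyte markers, the median was 0.22 for mitosis genes, with 7 of 19 levels lower, and -0.10 for replication genes, with 15 of 24 levels lower. The other miR-155KI NK1.1+ libraries held 8.48 and 21.6 CPM of these markers, against 7.02, 8.47 and 9.26 CPM in WT NK1.1+ libraries, and none of the 6 tested was called by edgeR, where 3 had an unadjusted p under 0.05. Of the myeloid markers, 11 of 12 tested had a positive log2 fold change (median 3.65), and C1qa and C1qc were called higher. The part of these transcripts in the levels of the cell cycle genes was not tested.

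Kif11 had 49.6, 22.3 and 20.8 CPM in miR-155KI NK1.1+ libraries, against 14.3, 15.2 and 11.7 CPM in WT NK1.1+ libraries. It was higher in 3 of 3 libraries without overlap, with a log2 fold change of 1.16 ± 0.35 (edgeR adjusted p = 0.272) that was 0.66 without replicate 1. Ccnb1 had 52.9, 13.1 and 15.6 CPM in miR-155KI NK1.1+ libraries, against 10.4, 11.4 and 7.21 CPM in WT NK1.1+ libraries, a log2 fold change of 1.48 ± 0.50 (edgeR adjusted p = 0.308) that was 0.58 without replicate 1. For both, replicate 1 exceeded the other miR-155KI libraries by more than these exceeded WT. Top2a had 123, 68.9 and 49.3 CPM in miR-155KI NK1.1+ libraries, against 46.0, 52.2 and 29.2 CPM in WT NK1.1+ libraries, a log2 fold change of 0.91 ± 0.32 (edgeR adjusted p = 0.318). Mki67 had 56.1, 18.8 and 17.6 CPM in miR-155KI NK1.1+ libraries, against 20.4, 29.9 and 14.7 CPM in WT NK1.1+ libraries, a log2 fold change of 0.50 ± 0.44 (edgeR adjusted p = 0.703). Top2a and Mki67 overlapped between genotypes, and Mki67 had a log2 fold change of -0.24 without replicate 1.

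Cdt1 went the other way. It had 85.2, 66.3 and 70.8 CPM in miR-155KI NK1.1+ libraries, against 114, 168 and 180 CPM in WT NK1.1+ libraries. All miR-155KI libraries lay under all WT libraries, replicate 1 included. The log2 fold change was -1.07 ± 0.20 (edgeR unadjusted p = 2.23e-04, adjusted p = 0.201). The adjusted p was 0.00112 with DESeq2, 0.0266 with all 12 libraries in one fit and 0.0081 without WT NK1.1+ replicate 1. That last fit keeps only WT libraries high in Xist against miR-155KI libraries low in it. Genotype and sex-linked transcripts thus cannot be told apart there. Cdt1 was also called with no low-count filter. It was not called with RLE size factors, limma, the replicate block, at least 10 counts in every library or any other library left out. Nor was Cdt1 called with WT replicate 1 as the only WT library. Its levels in miR-155KI cells overlapped between the pools, with 66.3 to 85.2 CPM in NK1.1+ and 70.4 to 83.5 CPM in NK1.1- libraries (log2 fold change -0.04 ± 0.15, edgeR adjusted p = 0.905).

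Of the other replication genes, Tyms had 58.4, 37.0 and 20.4 CPM in miR-155KI NK1.1+ libraries, against 18.9, 20.3 and 16.3 CPM in WT NK1.1+ libraries, a log2 fold change of 1.05 ± 0.34 (edgeR adjusted p = 0.296). Gins1 had 6.30, 7.72 and 7.32 CPM in miR-155KI NK1.1+ libraries, against 2.32, 4.32 and 2.85 CPM in WT NK1.1+ libraries, a log2 fold change of 1.15 ± 0.48 (edgeR adjusted p = 0.382) that was 1.25 without replicate 1. The libraries of both genes did not overlap between genotypes, and replicate 1 was the lowest miR-155KI library for Gins1. Mcm2 had 174, 152 and 132 CPM in miR-155KI NK1.1+ libraries, against 168, 154 and 136 CPM in WT NK1.1+ libraries, and these ranges overlapped (log2 fold change -0.02 ± 0.15, edgeR adjusted p = 0.979). Pcna had 262, 264 and 237 CPM in miR-155KI NK1.1+ libraries, against 279, 345 and 262 CPM in WT NK1.1+ libraries (log2 fold change -0.23 ± 0.14, edgeR adjusted p = 0.572). None of 65 other mitosis, 54 other replication and 22 genes of G1 and quiescence was called by edgeR. Of these, 18, 7 and 2 had an unadjusted p under 0.05 by edgeR, beside 1539 of all 12991 genes tested.

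**Figure D5:**
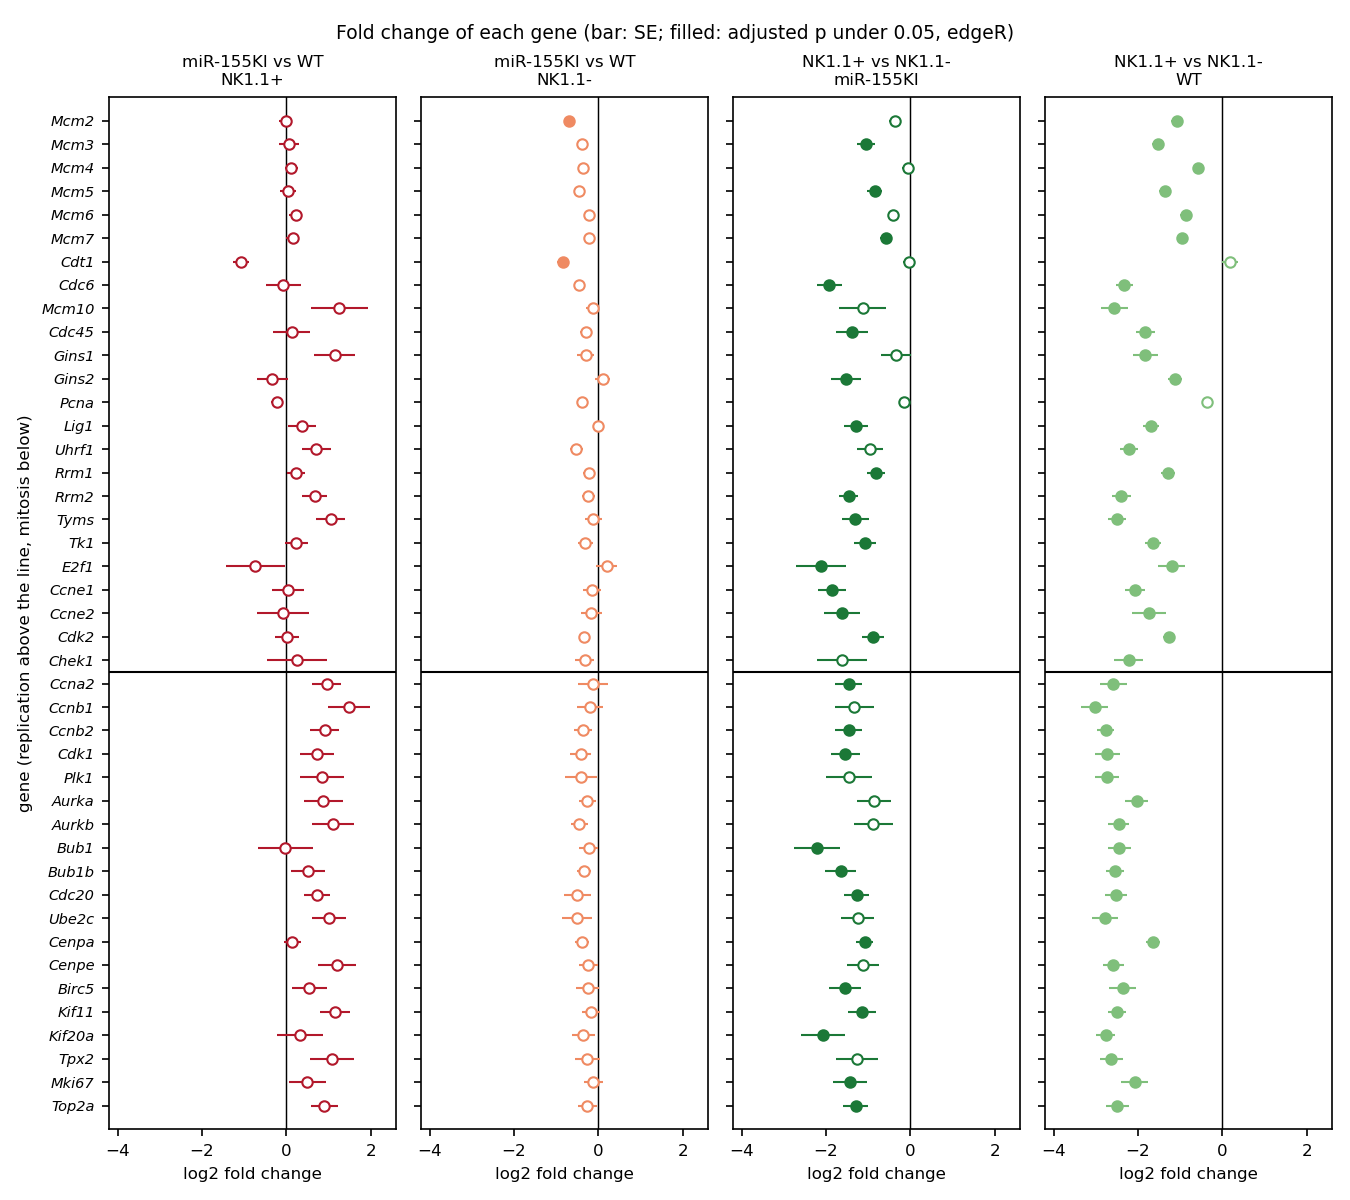
Log2 fold change (x axis) of each gene (y axis, replication above the line and mitosis below) in the 4 comparisons, with bars for the SE and filled points for an edgeR adjusted p under 0.05. In WT pools the median of mitosis genes lies left of that of replication genes (-2.54 against -1.59), while the 2 lists overlap. Only Mcm2 and Cdt1 are filled in a genotype comparison.

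The genotype effects in the pools were compared directly as an interaction, the log2 fold change of miR-155KI over WT in NK1.1+ cells minus that in NK1.1- cells. None of the 43 genes was called by edgeR, beside 0.00694% called higher and 0.0208% lower among 14401 genes tested. At an unadjusted p under 0.05 there were 7 replication and 9 mitosis genes, beside 1167 of all 14401 genes tested. DESeq2 called 1, Gins1, and limma called 0. Over all genes, DESeq2 called 139, beside 4 with edgeR and 4 with limma. The interaction was positive for 21 of 24 replication and 19 of 19 mitosis genes, with medians of 0.44 and 1.17 (0.01 for all genes tested), and the median over the 43 genes of 0.67 was 0.36 without miR-155KI NK1.1+ replicate 1. Mcm2 had an interaction of 0.67 ± 0.19 (edgeR unadjusted p = 0.00294, adjusted p = 0.323) and Gins1 one of 1.45 ± 0.44 (edgeR unadjusted p = 0.00472, adjusted p = 0.345). Those of Pcna, Top2a and Mki67 were 0.17 ± 0.18, 1.17 ± 0.49 and 0.62 ± 0.63. That of Cdt1 was -0.24 ± 0.25 (edgeR adjusted p = 0.887), and the test did not separate its genotype effects in the pools.

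The strand setting of the read counting was not stated in the sources, and 5 of the 43 genes share at least 10% of their annotated exon bases with a gene on the other strand. These were Gins2 (67.3%, with Gse1), Kif20a (29.3%, with Cdc23), Ube2c (22.8%, with Tnnc2), Ccne2 (17.4%, with Ints8) and Ccna2 (12.5%, with Exosc9), and their reads cannot be fully told from those of the partner.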

How the data were processed

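RNA-seq of 12 libraries of sorted thymic iNKT cells was analyzed. Raw read counts of each gene were deposited by the authors, with a second table of normalized signal headed CPM, in which every value is its count times 1 factor per library. Per the submitters' processing notes, reads were demultiplexed with bcl2fastq 2.17.1.14 and GRCm38 (mm10) was used. Aligner and counting program were not given in the sources used here. GEO's labels name a low-input cDNA kit and the study's methods another kit.

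Tests on counts were run with edgeR 4.0.16 under R 4.3.3 (default filter on low counts, TMM, robust quasi-likelihood test, Benjamini-Hochberg over all genes tested, threshold 0.05). Each comparison used its own 6 libraries, and the interaction all 12. SE is the log2 fold change over the root of the F statistic. Depth was 12819476 to 20518257 counts, and no 2 libraries held identical counts. The test was checked on simulated data, with the same spread in every comparison and no outlying library. The common coefficient of variation in edgeR was 0.21 for the NK1.1- and 0.37 for the NK1.1+ genotype comparison. The check therefore does not cover the wider spread of the latter. Alternatives were DESeq2 1.42.0, limma 3.58.1 on log2(deposited CPM + 1), RLE size factors, no low-count filter, at least 10 counts in every library, a block for replicate number, a single fit of all 12 libraries, WT replicate 1 as the only WT library, and each library left out. The main fits, that of the WT pools included, were unpaired. In the block alternative, replicate numbers were taken as pairs between WT pools, because deviations from the group mean correlated in each same-numbered pair (r = 0.374, 0.267 and 0.161). WT libraries of different number correlated between -0.305 and 0.15. The highest of these lay close to the lowest same-numbered value, so whether WT numbers mark true pairs was not settled. With the block, 4053 of all genes were called between WT pools, against 2819 in the main fit.

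The members and lists were chosen with earlier results of these data known. Values in every library are given for members called in a genotype comparison, for the 3 replication and 3 mitosis members with the smallest p in each comparison, for the 2 with the smallest interaction p, and for Mki67, Top2a, Pcna and Mcm2, with up to 3 called genes of each other list. Other genes, such as Mcm4, were named after their values were seen.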

Additional observations from a re-analysis of the deposited data

How the results depend on the processing

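Counts of genes called in both lists of the WT pools stayed within 1.5 times under every alternative. Of replication genes in miR-155KI against WT NK1.1- cells, 2 were called, 7 with DESeq2, 4 with no low-count filter, 5 with at least 10 counts in every library, 6 with the replicate block, 1 with WT replicate 1 as the only WT library, and 2 to 5 with 1 library left out. Of mitosis genes there, 0 were called, 1 with the replicate block (Cdc20), 1 with WT replicate 1 alone (Cdk1), and 0 to 1 with 1 library left out. In NK1.1+ cells, 0 replication genes were called, 1 with DESeq2, 2 with no filter, 1 with all 12 libraries in one fit, and 0 to 1 with 1 library left out, and 0 mitosis genes, 2 with DESeq2 and 4 with no filter. Between miR-155KI pools, leaving out 1 library gave 4 to 19 replication and 1 to 19 mitosis genes, against 15 and 12. Over all genes it gave 788 to 2542 calls, against 1821. For the interaction, DESeq2 called 1 gene and no filter 8, against 0. Without the filter the median of all genes moved to -0.12 in NK1.1- and -0.17 in NK1.1+ genotype comparisons. Calls over all genes moved too. Between NK1.1- genotypes they were 457 in the main fit, 960 with DESeq2, 1048 with no filter and 737 with the replicate block. Leaving out 1 library there gave 186 to 917. Between NK1.1+ genotypes they were 3, 316 with DESeq2, 282 with no filter and 60 with all 12 libraries in one fit. For the interaction they were 4, 139 with DESeq2 and 162 with no filter. Between genotypes the libraries share only a number. The miR-155KI pools share numbered titles as the WT pools do, and whether these are pairs was not settled. The replicate block gave 18 and 17 calls between miR-155KI pools and 0 in NK1.1+ cells and for the interaction, and 23 and 19 in WT pools. Same-numbered libraries correlated between 0.094 and 0.204 across NK1.1- genotypes, between -0.052 and 0.028 across NK1.1+ genotypes and between 0.07 and 0.134 across miR-155KI pools. Libraries of different number correlated between -0.104 and 0.008 across miR-155KI pools. The causes of these differences were not tested. Leaving WT with 1 library assumes that it varies like miR-155KI libraries. Leaving WT replicate 1 out of a genotype comparison keeps only WT libraries high in Xist, so genotype and sex-linked transcripts cannot be told apart there.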
